A study of Mus musculus and Homo sapiens with 16 samples.

Results

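Melanocyte identity and pigment genes were followed through the RNA libraries of a study of the transcription factor KLF5 in mouse skin. The group was a list of 8 genes chosen by symbol: Mitf, Tyr, Tyrp1, Dct, Mlana, Sox10, Kit and Slc45a2. All 8 were found among the 39179 genes of the count files, and all 8 had enough reads to be tested in each comparison. RNA came from C57BL/6 mice in 10 libraries. At embryonic stage E17.5, late in gestation, 3 libraries were labelled Klf5-/- and 3 were Klf5+/-, made from epidermis that was peeled off, dissociated and sorted for cells lacking DAPI and CD45 and carrying integrin alpha 6. A second set, whose titles hold the letters HFD without explaining them, had 2 libraries labelled Klf5-/- and 2 Klf5+/-, made from peeled epidermis ground to powder without a sort and with no age given. The promoter that drives the deletion, and whether every library is a separate animal, were not stated in the labels. No Klf5+/+ RNA was analysed, so the Klf5+/- libraries, which carry 1 altered allele themselves, are the baseline of every comparison.

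Melanocytes are the pigment cells of skin, derived from the neural crest, and their precursors reach the epidermis and hair follicles before birth. Sox10 and Mitf are transcription factors that specify the lineage, and MITF acts on the genes of the melanin enzymes through an E-box in their promoters. The receptor KIT keeps the precursors alive and moving. Melanin is then made inside melanosomes by tyrosinase and its relatives TYRP1 and DCT, while MLANA and SLC45A2 serve the melanosome itself. Melanocytes are a small minority of epidermal cells. In bulk RNA, fewer melanocytes and less RNA per melanocyte cannot be told apart.

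The 3 melanin enzyme genes share a sequence in their promoters, shown here because the level of each is followed below. RefSeq promoters (GRCm38.p6) were at hand for 5 of the 8 members: Mitf, Tyr, Tyrp1, Dct and Kit. In the 250 bases before the start, the longest run of letters common to Tyr, Tyrp1 and Dct was the 10 letters GTCATGTGCT, which hold the E-box CATGTG. The 30 bases around each match follow, 5′ to 3′ on the gene's strand, with the 10 letters in capitals.
Tyr: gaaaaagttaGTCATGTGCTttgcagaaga
Tyrp1: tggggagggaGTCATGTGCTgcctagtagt
Dct: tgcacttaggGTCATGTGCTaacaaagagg
The Tyr stretch is chr7:87493516-87493545 on the minus strand, and its first capital stands at −23 from the RefSeq start. The Tyrp1 stretch is chr4:80834155-80834184 on the plus strand, with its first capital at −48. The Dct stretch is chr14:118052379-118052408 on the minus strand, with its first capital at −152. Both strands were searched. Of all 32851 promoter windows of this length 51 (0.155%) held the 10 letters and 12.25% held CATGTG. The run was picked from these 3 windows, so that all 3 hold it is no finding. None of the 10 other pigment cell genes with an entry held the 10 letters, while 5 of those 10 held CATGTG (Mc1r, Oca2, Slc24a5, Trpm1 and Tspan10).

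The promoter of the longest Mitf transcript is given as a contrast, since it holds none of these letters and lay in open chromatin at E17.5. The promoters of the shorter RefSeq transcripts, with starts at 97929817 and 97991783, had no open chromatin peak over them. Reads were counted per gene, so they do not tell the Mitf transcripts apart. Open chromatin was read from the whole sorted epithelium, so it does not show which of these promoters melanocytes use. The promoter printed here, of the longest transcript, covers chr6:97806808-97807057 on the plus strand, with the GC-box letters GGGCGGG in capitals.
Mitf: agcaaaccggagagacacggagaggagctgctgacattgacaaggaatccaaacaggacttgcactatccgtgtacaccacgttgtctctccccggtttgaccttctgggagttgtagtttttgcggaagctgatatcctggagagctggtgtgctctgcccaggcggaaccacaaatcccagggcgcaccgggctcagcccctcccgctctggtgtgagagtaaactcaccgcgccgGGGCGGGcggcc
The letters GGGCGGG occur in 23.4% of all such windows on either strand. A match is a description of letters and not a binding site.

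The RNA libraries held 31819010 to 46445546 reads on genes, where 3 reads come to between 0.0646 and 0.0943 CPM (reads scaled to library size by TMM within each set). Members had between 80 and 9092 reads in a library, far above that floor. Klf5 itself did not drop with its label. It had 197, 177 and 173 CPM in the E17.5 libraries labelled Klf5-/-, against 181, 198 and 163 CPM in Klf5+/- libraries. In the HFD set it had 101 and 120 CPM in the libraries labelled Klf5-/-, against 62.8 and 42.8 CPM in Klf5+/- libraries. The deleted part is not given, so gene-level reads are no check of genotype and each direction below rests on the labels. CPM of the 2 sets are not on 1 scale.

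**Figure D1:**
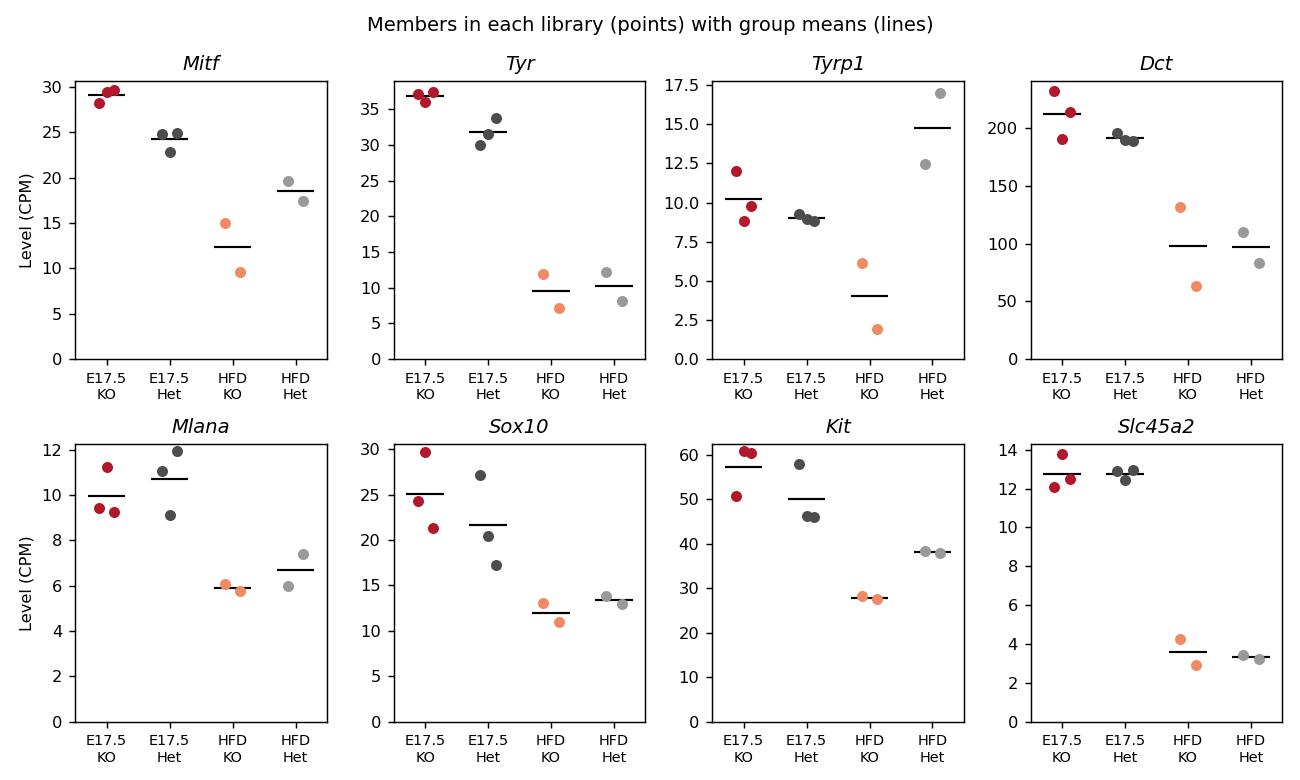
Level of each of the 8 members (CPM, axes from 0) in every library, with a line at each group's mean; libraries labelled Klf5-/- (KO) stand left of Klf5+/- (Het) libraries in each set. Points of the genotypes lie apart at E17.5 for Mitf and Tyr, and in the HFD set for Mitf, Tyrp1 and Kit.

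All 8 melanocyte genes were detected in sorted E17.5 epithelium of both genotypes. None of the 8 members passed the test in edgeR at an adjusted p of 0.05, where 0.0861% of all 15092 genes tested did. Mitf and Tyr had an unadjusted p under 0.05 in edgeR, as 10% of all genes tested had. The members' median log2 fold change was 0.19, with 7 of 8 above 0, while the median of all genes tested was 0.01. Their CPM added up to between 380 and 406 in the libraries labelled Klf5-/-, against 341 to 369 in Klf5+/- libraries, so the sums did not overlap.

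Mitf, the lineage's leading transcription factor (ENSMUSG00000035158, mm10 chromosome 6, 97807058 to 98021349, plus strand), had 28.2, 29.5 and 29.7 CPM in the E17.5 libraries labelled Klf5-/-, against 24.8, 22.9 and 25.0 CPM in Klf5+/- libraries. The genotypes did not overlap, and the libraries labelled Klf5-/- were the higher ones. Its mean was 29.1 ± 0.790 CPM in libraries labelled Klf5-/- and 24.2 ± 1.19 CPM in Klf5+/- libraries (SD, n = 3 each). The log2 fold change was 0.27 (with SE 0.093, edgeR adjusted p = 0.325).

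Tyr, which encodes tyrosinase, the rate-limiting enzyme of melanin synthesis (ENSMUSG00000004651, chromosome 7, 87427405 to 87493411, minus strand), likewise did not overlap. It had 37.2, 36.0 and 37.4 CPM in libraries labelled Klf5-/-, against 30.0, 31.6 and 33.8 CPM in Klf5+/- libraries. The log2 fold change was 0.21 (with SE 0.092, edgeR adjusted p = 0.463). Mitf and Tyr were the members whose genotypes lay apart at E17.5, which held for 14.8% of all genes tested and, with the libraries labelled Klf5-/- higher, for 6.63%.

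Dct, the dopachrome tautomerase (ENSMUSG00000022129, chromosome 14, 118012792 to 118052246, minus strand), was the most abundant member. It had 232, 190 and 214 CPM in libraries labelled Klf5-/-, against 196, 190 and 188 CPM in Klf5+/- libraries. The lowest library labelled Klf5-/- fell among the Klf5+/- libraries (log2 fold change 0.15 with SE 0.093, edgeR adjusted p = 0.702). Dct alone made up between 44.4 and 60.8% of the members' summed CPM in the 10 libraries.

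Tyrp1, which acts late in melanin synthesis and steadies tyrosinase (ENSMUSG00000005994, chromosome 4, 80834123 to 80851719, plus strand), had 12.0, 8.83 and 9.77 CPM in E17.5 libraries labelled Klf5-/-, against 9.25, 8.92 and 8.83 CPM in Klf5+/- libraries. Its genotypes overlapped, with 1 library labelled Klf5-/- above the rest (0.18, SE 0.15, edgeR adjusted p = 0.824). Kit (ENSMUSG00000005672, chromosome 5, 75574916 to 75656722, plus strand) had 50.8, 60.8 and 60.3 CPM in libraries labelled Klf5-/-, against 57.8, 46.3 and 46.1 CPM in Klf5+/- libraries. The first Klf5+/- library stood among those labelled Klf5-/- (0.19, SE 0.12, edgeR adjusted p = 0.688).

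Sox10, a neural crest factor also used by Schwann cells (ENSMUSG00000033006, chromosome 15, 79154913 to 79164490, minus strand), varied most within genotypes. It had 24.4, 29.7 and 21.3 CPM in libraries labelled Klf5-/-, against 27.1, 20.5 and 17.3 CPM in Klf5+/- libraries. Mlana, a melanosome membrane protein (ENSMUSG00000024806, chromosome 19, 29697921 to 29708448, plus strand), had 9.43, 11.2 and 9.23 CPM in libraries labelled Klf5-/-, against 11.1, 9.10 and 12.0 CPM in Klf5+/- libraries. Slc45a2, a melanosomal transporter (ENSMUSG00000022243, chromosome 15, 11000721 to 11029233, plus strand), had 12.1, 13.8 and 12.5 CPM in libraries labelled Klf5-/-, against 12.9, 12.4 and 12.9 CPM in Klf5+/- libraries. All 3 overlapped, at log2 fold changes of 0.22, −0.10 and 0.002.

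In the unsorted HFD epidermis the genotypes lay apart for some members and overlapped for others, and differences between members were not tested. Tyrp1, Mitf and Kit were lower in both libraries labelled Klf5-/- than in both Klf5+/- libraries, while Dct, Tyr, Mlana, Sox10 and Slc45a2 overlapped. None of the 8 passed in edgeR, where 5.5% of 15848 genes tested did (4.02% lower). Tyrp1 and Kit had an unadjusted p under 0.05 in edgeR, as 27.1% of all genes tested had. With 2 libraries a group, 60.1% of all genes tested did not overlap, and 32.7% did not with the libraries labelled Klf5-/- lower, so 3 of 8 is near that share. The members' median log2 fold change was −0.17, beside −0.01 for all genes tested.

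Tyrp1 had the largest difference of the 8. It had 180 and 80 reads, or 6.17 and 1.93 CPM, in the HFD libraries labelled Klf5-/-, against 502 and 626 reads, or 12.5 and 17.0 CPM, in Klf5+/- libraries. The mean was 4.05 ± 2.99 CPM in libraries labelled Klf5-/- and 14.8 ± 3.20 CPM in Klf5+/- libraries (SD, n = 2 each), so that the Klf5+/- mean was 3.64 times the other. The log2 fold change was −1.88 (with SE 0.57, edgeR adjusted p = 0.108). Its adjusted p crossed the threshold with DESeq2 (0.0108), with limma-voom (0.035) and in an edgeR fit of all 10 libraries (0.0109). It also passed when either library labelled Klf5-/- was left out, at −2.90 without the first (edgeR adjusted p = 8.09e-07) and −1.22 without the second (edgeR adjusted p = 0.00466), with the lone library taken to vary like the others. It did not pass without either Klf5+/- library (edgeR adjusted p = 0.27 and 0.353) or in the other 5 alternatives (edgeR adjusted p between 0.0767 and 0.125).

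Mitf had 15.0 and 9.58 CPM in the HFD libraries labelled Klf5-/-, against 19.7 and 17.4 CPM in Klf5+/- libraries (log2 fold change −0.59 with SE 0.28, edgeR adjusted p = 0.233). The second library labelled Klf5-/- was the lowest of the 4, and without the first, which stood nearer to the Klf5+/- libraries, the log2 fold change was −0.93 (edgeR adjusted p = 0.00719). Without the second library labelled Klf5-/- it was −0.27 (edgeR adjusted p = 0.529). Kit was tight within genotypes, at 28.3 and 27.5 CPM in libraries labelled Klf5-/-, against 38.3 and 38.0 CPM in Klf5+/- libraries. Its log2 fold change was −0.45 (with SE 0.17, edgeR adjusted p = 0.162) and no library left out brought it past the threshold.

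Dct had 132 and 63.4 CPM in the HFD libraries labelled Klf5-/-, against 110 and 83.1 CPM in Klf5+/- libraries. The libraries labelled Klf5-/- were its highest and its lowest, and the log2 fold change was 0.01 (with SE 0.37, edgeR adjusted p = 0.989). It was −0.22 on library totals, a scaling that put the median of all genes at −0.23. Tyr, whose promoter carries the same 10 letters, had 11.9 and 7.10 CPM in libraries labelled Klf5-/-, against 12.2 and 8.15 CPM in Klf5+/- libraries. The log2 fold change of Tyr was −0.10 (SE 0.36, edgeR adjusted p = 0.882).

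Sox10 had 13.0 and 11.0 CPM in the HFD libraries labelled Klf5-/-, against 13.9 and 12.9 CPM in Klf5+/- libraries. Mlana had 6.06 and 5.75 CPM in libraries labelled Klf5-/-, against 6.00 and 7.42 CPM in Klf5+/- libraries. Slc45a2 had 4.28 and 2.90 CPM in libraries labelled Klf5-/-, against 3.46 and 3.21 CPM in Klf5+/- libraries. These 3 had log2 fold changes of −0.16, −0.18 and 0.10 (edgeR adjusted p = 0.697, 0.726 and 0.887), with that of Slc45a2 at −0.12 on library totals. A fold change near 0 with SEs of 0.23 to 0.38 does not show that levels were equal.

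**Figure D2:**
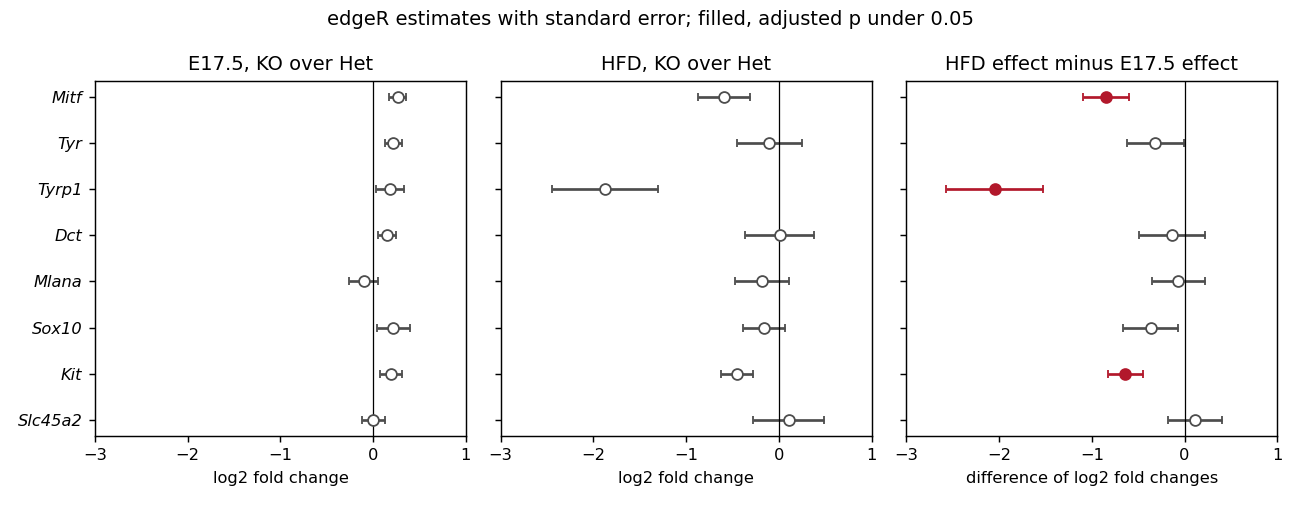
Log2 fold changes of the members, libraries labelled Klf5-/- (KO) over Klf5+/- (Het), with 1 SE either side, at E17.5, in the HFD set, and as the difference of both. Filled points passed an edgeR adjusted p of 0.05: Mitf, Tyrp1 and Kit in the difference, none within a set.

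Whether the genotype difference itself changed between the sets was tested as a contrast, HFD minus E17.5, over all 10 libraries. Of the 8 members 3 passed in edgeR and all 3 were negative, where 14.7% of 17260 genes tested passed and 7.61% were negative. The difference was −2.05 for Tyrp1 (SE 0.52, edgeR adjusted p = 0.0261), −0.85 for Mitf (SE 0.25, edgeR adjusted p = 0.0423) and −0.64 for Kit (SE 0.19, edgeR adjusted p = 0.0465). The other 5 lay between −0.36 for Sox10 and 0.11 for Slc45a2 and did not pass. The members' median was −0.34, beside −0.02 for all genes tested. Marker lists of other cell types, described below, had calls in this contrast too. Lower were 7 of 12 fibroblast, 4 of 7 endothelial and 5 of 15 hair follicle markers, with none higher. Of 12 keratinocyte markers 5 were higher and none lower.

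These 3 calls lay close to the threshold. When each library was left out in turn, Tyrp1 passed in 4 of 10 fits, Kit in 3 and Mitf in 1, and the differences ranged from −3.09 to −1.42, from −0.80 to −0.58 and from −1.21 to −0.56. For Tyrp1 it was −3.09 without the first HFD library labelled Klf5-/-, and it passed too without the other such HFD library and without the second or the third E17.5 library labelled Klf5-/-. It was lost without any other library (edgeR adjusted p between 0.0505 and 0.0937). Kit passed without the first E17.5 library of either genotype or the first HFD library labelled Klf5-/- (edgeR adjusted p between 0.0823 and 0.125 without any other), and Mitf only without the first HFD library labelled Klf5-/- (0.067 to 0.141 without any other). Kit also missed without a low-count filter (edgeR adjusted p = 0.0511) and with the replicate number as a block (edgeR adjusted p = 0.0749). Sorting, preparation, kit and what the letters HFD stand for differ between the sets, and age may, since it is given for 1 set alone; these cannot be told apart from each other here.

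Reads of the members set against those of Dct in the same library need no scaling between libraries. Tyrp1 had 5.16, 4.64 and 4.56 reads for every 100 Dct reads in the E17.5 libraries labelled Klf5-/-, against 4.72, 4.70 and 4.69 in Klf5+/- libraries. It had 4.69 and 3.05 in the HFD libraries labelled Klf5-/-, against 11.3 and 20.5 in HFD Klf5+/- libraries. The first HFD library labelled Klf5-/- lay within the E17.5 range, and the HFD Klf5+/- libraries stood above all other 8.

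Mitf had 11.4 and 15.1 reads for every 100 Dct reads in the HFD libraries labelled Klf5-/-, against 17.8 and 21.0 in Klf5+/- libraries, with E17.5 libraries of both genotypes between 12.0 and 15.5. Kit had 21.5 and 43.4 in the HFD libraries labelled Klf5-/-, against 34.7 and 45.8 in Klf5+/- libraries, which overlap. Tyr had 9.06 and 11.2 in the HFD libraries labelled Klf5-/-, against 11.1 and 9.82 in Klf5+/- libraries. Of these 3 genes only Mitf kept its HFD genotypes apart on this scale, and Sox10, Mlana and Slc45a2 overlapped as Kit and Tyr did. The share of all genes that lie apart on it was not counted. Dct itself ranged from 63.4 to 132 CPM in the HFD libraries, and its spread enters every ratio. These ratios are descriptions and were not tested.

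**Figure D3:**
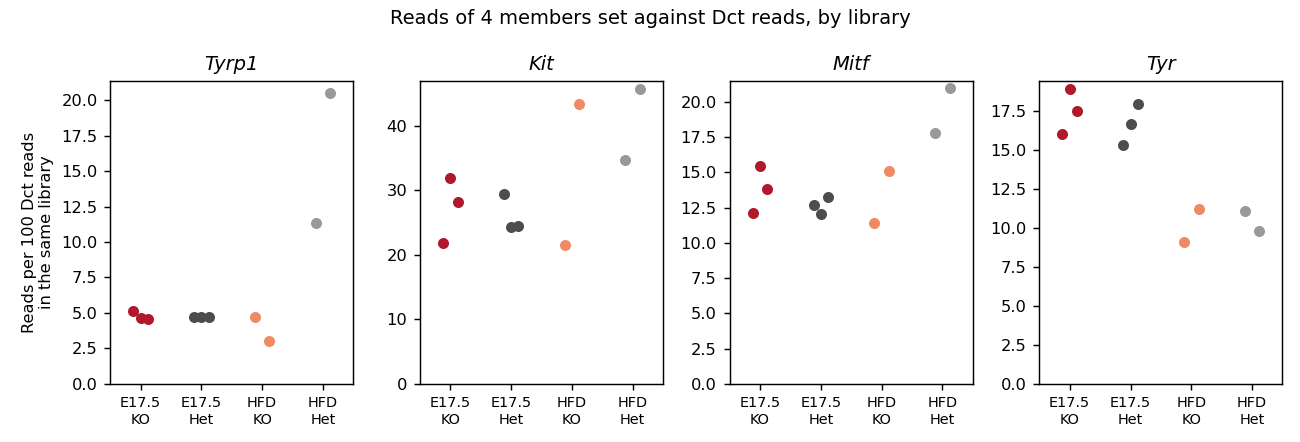
Reads of Tyrp1, Kit, Mitf and Tyr for every 100 Dct reads in the same library (axes from 0), with libraries labelled Klf5-/- (KO) left of Klf5+/- (Het). Tyrp1 lies between 3.05 and 5.16 in 8 libraries and at 11.3 and 20.5 in the HFD Klf5+/- libraries.

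Levels between genes were compared as RPKM, reads per kilobase of exon on the scaled library sizes. Dct led in every group, at 94.2 ± 9.34 RPKM in E17.5 libraries labelled Klf5-/- and 85.0 ± 1.81 in Klf5+/- libraries (SD, n = 3 each). In the HFD set it had 43.3 ± 21.4 RPKM in libraries labelled Klf5-/- and 42.9 ± 8.57 in Klf5+/- libraries (SD, n = 2 each). Mlana, a short transcript, took rank 2 in each group, at 16.1 ± 1.79 and 17.3 ± 2.36 RPKM in E17.5 libraries labelled Klf5-/- and Klf5+/-, and at 9.55 ± 0.363 and 10.9 ± 1.63 RPKM in the same HFD groups. Neither rank overlapped with the next in any group.

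Further down, the order differed by set. At E17.5 Tyr took rank 3 and Tyrp1 rank 8 in both genotypes, Tyrp1 at 3.62 ± 0.575 RPKM in libraries labelled Klf5-/- and 3.19 ± 0.0781 in Klf5+/- libraries. Mitf, Slc45a2 and Tyrp1 overlapped at the foot of the E17.5 order in libraries labelled Klf5-/-, whereas in Klf5+/- libraries each stood apart from its neighbour. In the HFD set Kit took rank 3 in both genotypes. Tyrp1 took rank 7 there in libraries labelled Klf5-/-, at 1.44 ± 1.06 RPKM and overlapping both neighbours, and rank 4 in Klf5+/- libraries, at 5.23 ± 1.13 RPKM and overlapping Sox10 below it.

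For 7 of the 8 members, every HFD library stood below every E17.5 library. Slc45a2 ranged from 2.90 to 4.28 CPM in the 4 HFD libraries, against 12.1 to 13.8 CPM in the 6 at E17.5, and Tyr from 7.10 to 12.2 CPM against 30.0 to 37.4 CPM. Tyrp1 was the exception, since the HFD Klf5+/- libraries reached 12.5 and 17.0 CPM, against 8.83 to 12.0 CPM at E17.5. These levels were scaled within each set and were not tested across them. The share of all genes with this order was not counted, so 7 of 8 is not shown to be a trait of the members.

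Other genes of the pigment cell were read from a list of 13. At E17.5 none of 12 tested passed in edgeR and 1 had an unadjusted p under 0.05, with a median log2 fold change of 0.14. In the HFD set 1 of 13 passed, and it was higher, as 1.48% of all genes tested were (median 0.25). That gene was Rab38, a small GTPase that carries melanin enzymes to the melanosome and is not limited to melanocytes. It had 165 and 194 CPM in libraries labelled Klf5-/-, against 79.7 and 78.7 CPM in Klf5+/- libraries (log2 fold change 1.18 with SE 0.17, edgeR adjusted p = 0.0342).

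Pmel, the fibril protein of the melanosome and a marker of the lineage, interleaved between the genotypes as Dct did. It had 63.4 and 39.1 CPM in the HFD libraries labelled Klf5-/-, against 49.3 and 37.5 CPM in Klf5+/- libraries (log2 fold change 0.24 with SE 0.28, edgeR adjusted p = 0.628). Ednrb, the endothelin receptor of melanoblasts, which endothelium and other cells also carry, had 18.4 and 8.74 CPM in libraries labelled Klf5-/-, against 41.0 and 52.6 CPM in Klf5+/- libraries. Its HFD log2 fold change was −1.79 (with SE 0.38, edgeR adjusted p = 0.0541), and its difference between the sets was −1.97 (SE 0.36, edgeR adjusted p = 0.0072). In that contrast Ednrb was the 1 lower gene of the 13, where 7.61% of all genes tested were lower. Rab38 was the 1 higher gene (1.24, SE 0.18, edgeR adjusted p = 0.00342), where 7.07% were higher. The list's median in the contrast was 0.18.

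Transcription regulators of the melanoblast showed 0 of 13 tested past edgeR's threshold at E17.5 (0 with an unadjusted p under 0.05) and 0 of 14 in the HFD set (9 with one, where 27.1% of all genes tested had one). In the contrast between the sets 3 of 14 were lower, as were 7.61% of all genes tested. Sox2, a factor of neural crest and Merkel cells, had a difference of −1.57 (SE 0.43), Zeb2 one of −2.17 (SE 0.40) and Foxd3, a neural crest factor that acts before Mitf, one of −2.08 (SE 0.62), with edgeR adjusted p = 0.0328, 0.00811 and 0.0463. Pax3, which acts with Sox10 on Mitf, had 5.72 ± 0.821 CPM in HFD libraries labelled Klf5-/- and 4.33 ± 0.207 CPM in Klf5+/- libraries (SD, n = 2 each; edgeR adjusted p = 0.46); it was named after its values were seen.

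Genes of melanosome assembly and transport, most of them shared with lysosomes of other cells, had fold changes on both sides of 0 within each set. Of 20 tested, 0 passed in edgeR at E17.5 (4 with an unadjusted p under 0.05, median −0.05) and 0 in the HFD set (2, median −0.04). Between the sets 3 of 20 were higher, as were 7.07% of all genes tested: Lyst by 0.96, the copper pump Atp7a by 1.04 and the cystine transporter Slc7a11 by 1.24 (edgeR adjusted p = 0.043, 0.015 and 0.0268).

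Signals that other skin cells send to melanocytes were a list of 12, of which 6 were tested at E17.5 and none passed in edgeR (1 with an unadjusted p under 0.05). In the HFD set, where 4.02% of all genes tested were lower, 1 of 11 tested was lower and none higher (median −1.59). That gene was Bmp4, a growth factor of the dermis among other tissues, at 7.71 and 4.88 CPM in libraries labelled Klf5-/-, against 17.4 and 21.9 CPM in Klf5+/- libraries (log2 fold change −1.65 with SE 0.31, edgeR adjusted p = 0.0423). Kitl, the ligand of KIT, had 45.7 and 36.3 CPM in libraries labelled Klf5-/-, against 62.7 and 74.4 CPM in Klf5+/- libraries (−0.74, SE 0.20, edgeR adjusted p = 0.0763). Kitl and Kit each stood lower in both HFD libraries labelled Klf5-/-, as did 32.7% of all genes tested. Neither passed within the set, and a link between the 2 was not tested.

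Kitl had 115, 107 and 134 CPM in E17.5 libraries labelled Klf5-/-, against 106, 99.6 and 114 CPM in Klf5+/- libraries, and its difference between the sets passed (−0.88, SE 0.20, edgeR adjusted p = 0.0154). Edn3, a ligand of EDNRB, had 2.09 and 1.04 CPM in HFD libraries labelled Klf5-/-, against 6.64 and 6.96 CPM in Klf5+/- libraries (−2.13, SE 0.44, edgeR adjusted p = 0.0502). The differences of Edn3 and Bmp4 between the sets, −3.80 and −1.77, passed as well (edgeR adjusted p = 0.0111 and 0.0187). In that contrast 3 of the 12 signals were lower and none higher, where 7.61% of all genes tested were lower.

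Markers of other cell types moved with genotype in the unsorted HFD set, and some members are also made in those cells. Mast cells, which rely on Kit and Mitf, are the first of them. The 13 mast cell markers added up to 710 and 211 CPM in the first and second HFD library labelled Klf5-/-, against 2142 and 2259 CPM in Klf5+/- libraries. Without Hpgds, a gene set aside after its values were seen, the sums were 596 and 36.1 CPM in libraries labelled Klf5-/-, against 2082 and 2201 CPM in Klf5+/- libraries. The mast cell protease gene Cpa3 averaged 95.5 ± 121 CPM in HFD libraries labelled Klf5-/- and 708 ± 54.3 CPM in Klf5+/- libraries (SD, n = 2 each), and did not pass (edgeR adjusted p = 0.302). Of the 13 only Hpgds passed in edgeR, and it was higher (log2 fold change 1.30). The part of mast cells in the HFD values of Kit and Mitf was not tested.

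At E17.5, where cells were sorted for lack of CD45, a surface protein that mast cells carry, transcripts of Ptprc, which encodes CD45, were still read at 8.70 ± 2.56 CPM in libraries labelled Klf5-/- and 8.16 ± 3.22 CPM in Klf5+/- libraries (SD, n = 3 each); Ptprc was named after its values were seen. The 12 mast cell markers without Hpgds came to 1.90 to 5.60 CPM in libraries labelled Klf5-/- and 1.38 to 3.12 CPM in Klf5+/- libraries. Fcer1a, the IgE receptor chain, had no reads in any of the 6. Kit in these same libraries had 46.1 to 60.8 CPM.

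Markers of the dermis and its vessels had HFD fold changes below 0 throughout, where 50.5% of all genes tested were below 0. In edgeR 4.02% of all genes tested in that set were lower. Fibroblast markers summed to between 1383 and 5546 CPM in the HFD libraries labelled Klf5-/-, against 18570 to 22374 CPM in Klf5+/- libraries, with 12 of 12 below 0 and 2 lower in edgeR (Thy1 and Postn). Endothelial markers summed to between 13.9 and 68.1 CPM in libraries labelled Klf5-/-, against 365 to 402 CPM in Klf5+/- libraries, with 7 of 7 below 0 and 2 lower (Tek and Kdr). At E17.5 fibroblast sums were 1916 to 2080 CPM in libraries labelled Klf5-/-, against 1739 to 2061 CPM in Klf5+/- libraries, and 9 of 11 tested had a fold change above 0, with a median of 1.03. Endothelial sums there were 1.95 to 3.61 CPM in libraries labelled Klf5-/-, against 0.631 to 1.45 CPM in Klf5+/- libraries. No fibroblast or endothelial marker passed at E17.5, where 7 of 11 and 1 of 4 tested had an unadjusted p under 0.05 in edgeR. Of all genes tested at E17.5, 10% had one. What these cells contribute to the HFD values of Ednrb, Edn3, Bmp4 and Zeb2 was not tested.

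Schwann cells share Sox10 with melanocytes. Their 14 markers summed to between 208 and 263 CPM in HFD libraries labelled Klf5-/-, against 211 to 247 CPM in Klf5+/- libraries. Erbb3, a receptor of neuregulins that epidermis also makes and the list's main share there, had 140 ± 30.4 CPM in libraries labelled Klf5-/- and 87.0 ± 3.898 CPM in Klf5+/- libraries (SD, n = 2 each; edgeR adjusted p = 0.0944). Of the 14 markers 10 had an HFD fold change below 0, with a median of −0.98. An unadjusted p under 0.05 was found for 9 (27.1% of all genes tested), and 2 were lower in edgeR (4.02% of all). Cadm4, a cell adhesion gene, was one of them (log2 fold change −1.42). Sox10 overlapped between the same groups. At E17.5 Schwann sums were 216 to 326 CPM in libraries labelled Klf5-/-, against 251 to 285 CPM in Klf5+/- libraries, and none passed in edgeR (1 with an unadjusted p under 0.05).

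Hair follicles house most melanocytes of adult mouse skin. Of 15 follicle markers 5 were lower in edgeR in the HFD libraries labelled Klf5-/- and none was higher (median −1.37). Of all genes tested there 4.02% were lower. Krt71, a keratin of the inner root sheath, averaged 26.2 ± 3.34 CPM in libraries labelled Klf5-/- and 256.4 ± 10.3 CPM in Klf5+/- libraries (SD, n = 2 each; log2 fold change −3.29 with SE 0.19, edgeR adjusted p = 0.0126). Krt25, also of the inner root sheath, averaged 22.2 ± 4.53 CPM in libraries labelled Klf5-/- and 157 ± 9.61 CPM in Klf5+/- libraries (edgeR adjusted p = 0.0188). The hair keratin gene Krt35 and the regulator Trps1 were lower too, by log2 fold changes of −3.38 and −1.46. Of the 15 markers 5 overlapped between the HFD genotypes, where 60.1% of all genes tested did not overlap. Among those 5 was Shh, at 20.4 ± 4.05 CPM in libraries labelled Klf5-/- and 19.7 ± 7.20 CPM in Klf5+/- libraries. Shh was named after its values were seen. The part of the follicle markers in the HFD values of Tyrp1 was not tested. At E17.5 no follicle marker of 12 tested passed (2 with an unadjusted p under 0.05 in edgeR).

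Markers of keratinocytes, the main cell type of epidermis, summed to between 60549 and 65513 CPM in the HFD libraries labelled Klf5-/-, against 29970 to 34587 CPM in Klf5+/- libraries, with 12 of 12 above 0 and Krt1 the 1 gene called. At E17.5 they summed to between 57103 and 72627 CPM in libraries labelled Klf5-/-, against 78756 to 97359 CPM in Klf5+/- libraries. Immune markers had 1 gene lower in the HFD set, Lyz2, and Merkel cell markers none (3 with an unadjusted p under 0.05 in edgeR), and neither list had a call at E17.5 (0 in both with an unadjusted p under 0.05).

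**Figure D4:**
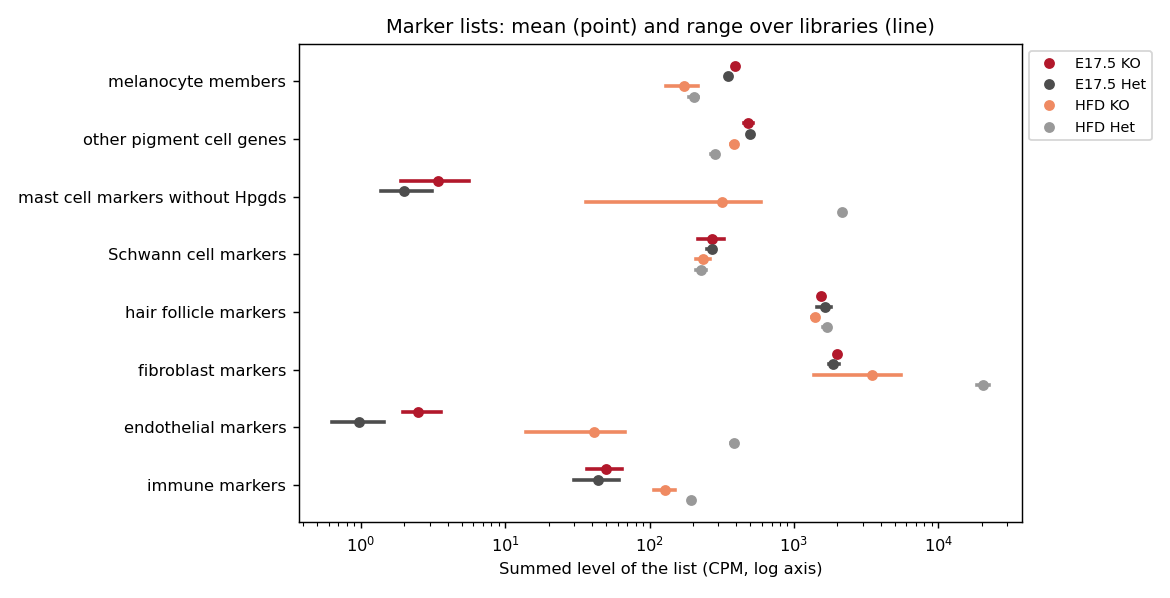
Summed CPM (log axis) of the members and of marker lists of other cell types in each group; points are means, lines the range over libraries, and libraries labelled Klf5-/- (KO) stand above Klf5+/- (Het). In the HFD set mast, fibroblast and endothelial sums of the libraries labelled Klf5-/- lie wholly below those of Klf5+/- libraries, while the members' sums, 129 to 216 against 187 to 216 CPM, overlap.

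The genes nearest to the members' mean profile were not pigment genes. Each gene's log2 level was centred within its set, and its distance from the members' mean was taken over the 10 libraries, among 12166 genes with at least 1 CPM in both sets. The 10 nearest were Gmpr2, Hmgb3, Zfp637, Nedd4, Tubb5, Skp2, Ogfr, Ackr3, Lig1 and Ncaph, at root mean square distances of 0.046 to 0.066 log2 units, where the median gene stood at 0.277. The members themselves lay between 0.085 (Mitf) and 0.486 (Tyrp1) from their own mean, so Tyrp1 was farther from it than the median gene. Over the 4 HFD libraries alone the 10 nearest were all other genes, led by Rps6kc1 and with the follicle marker Lhx2 at rank 6. The genes named thus depend on the libraries used. The libraries share their depth and preparation within a set, and the likeness is a description.

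Chromatin at the members was read from peak lists of sorted E17.5 epithelium, 1 sample for each assay, where melanocytes are a small part of the cells. Acetylation of histone H3 (H3K27ac) marks promoters and enhancers in use, and ATAC-seq marks open chromatin. Within 1 kb either side of the annotated 5′ end, a KLF5 peak lay at 1 of 8 members, against 18.9% of all genes tested at E17.5. An H3K27ac peak lay at 1 of 8, against 57.7%, and an open chromatin peak at 3 of 8, against 77.4%.

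Dct was the member with all 3. Its KLF5 peak (mm10 chromosome 14, 118051022 to 118051301) had its summit 1095 bases inside the gene from the 5′ end, with the authors' fold enrichment of 4.48 and −log10 q of 8.06. That fold ranked 1764 of 6472 KLF5 peaks. The H3K27ac peak over the same bases (118051003 to 118051258) had a fold of 2.69 and a rank of 16944 of 18155. H3K27ac peaks at the keratinocyte gene Krt14 also had low folds, from 2.14 to 2.96, so a low rank alone does not mark a gene as little used. The open chromatin peak spanned 118050897 to 118051517 with a fold of 8.89. None of the 3 peaks reached the promoter stretch with the 10 letters. With peaks limited to a −log10 q of at least 10, no member kept a KLF5 or H3K27ac peak near its 5′ end. Of all genes tested at E17.5, 3.23% kept a KLF5 peak there and 38.1% an H3K27ac peak.

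Mitf and Kit had open chromatin alone at the 5′ end. The Mitf peak (chromosome 6, 97806793 to 97807419, fold 9.76) covered all 250 bases of the promoter printed above, and none lay over the promoters of the 2 shorter RefSeq transcripts. H3K27ac peaks lay 76910 and 77229 bases into the gene. The Kit peak (chromosome 5, 75574662 to 75575193, fold 5.68) covered its promoter too. At Tyr, Tyrp1, Mlana and Sox10 no peak of any of the 3 assays lay within 1 kb of the 5′ end or in the gene, and Slc45a2 had open chromatin inside the gene. The nearest KLF5 peak was 20241 bases from the 5′ end of Sox10 and 1105531 bases from that of Tyrp1. The lists come from embryos labelled wild type (the open chromatin sample is titled Het), so they show no genotype difference, and peaks of a rare cell type may lie below what such lists can show.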

How the data were processed

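Each RNA library came as whole read counts per Ensembl gene, as the authors deposited them. The HFD files also hold RPKM, which the authors deposited beside the counts; it was not used, and RPKM here was computed from the counts and the deposited exon lengths. The submitters' processing notes name STAR 2.6.0b, HTSeq, Bowtie 1.0.1, Bowtie2 2.2.3, MACS2 and the build mm10 (GRCm38). The strand setting of the counting is not given there. Reads counted as ambiguous made up 3.40 to 3.79% of E17.5 reads and 1.07 to 1.14% of HFD reads. The deposited peak lists give a fold enrichment, a ratio, and −log10 p and q values, which are the authors' own and served only to describe peaks. HaCaT lists, made on hg19, and the IgG sample were not analysed here. Symbols and coordinates are those the deposited HFD files pair with each identifier; 37607 of 39179 identifiers were also in a table of gene names. Of the members, only Mitf overlaps another gene, Gm15531 on the other strand, which had at most 10 reads.

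Reads naming no gene (13.4 to 16.9%) stayed out of library sizes and tests. Separate fits for E17.5 and HFD used edgeR 4.0.16 under R 4.3.3 (TMM, filterByExpr by group, robust quasi-likelihood, Benjamini-Hochberg over all genes tested, threshold 0.05), and the difference between sets as a contrast over all 10 libraries. SE is the log2 fold change divided by the square root of F. Alternatives used DESeq2 1.42.0, limma 3.58.1, other scalings and filters, a replicate block and each library left out. The fits were tested on simulated data. The members and lists were chosen with earlier results of these data known. All members are named, and of other lists up to 4 called genes and 2 of the highest level; exceptions are stated, and 1 called gene is not reported here. Same-numbered libraries were not paired by any label: their deviations correlated at −0.12 to 0.25 in the 3 E17.5 pairs. Replicates differed by more than sampling noise. No label says that libraries of a group are separate animals, so p-values measure the spread between libraries, which may be technical. Floors cover counting error only. Promoter sequences are from RefSeq.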

Additional observations from a re-analysis of the deposited data

Results flagged for a closer look

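The genotype effects of 3 members differed between the HFD and E17.5 sets by a test of the difference itself. For Tyrp1 the difference (HFD minus E17.5, log2) was −2.05 (edgeR adjusted p = 0.0261), with log2 fold changes of −1.88 in the HFD set and 0.18 at E17.5. For Mitf it was −0.85 (edgeR adjusted p = 0.0423), with −0.59 in the HFD set and 0.27 at E17.5. For Kit it was −0.64 (edgeR adjusted p = 0.0465), with −0.45 in the HFD set and 0.19 at E17.5. Each was below 0 in every alternative run, and 14.7% of all genes tested passed the same contrast. Fibroblast, endothelial and hair follicle markers had lower calls in it too.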

How the results depend on the processing

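At E17.5, 13 genes were called; the count was 6 on library totals, 237 without a low-count filter, 2 with a minimum mean of 1 CPM, 461 with DESeq2, 8 with limma-voom and 3 in the fit of all 10 libraries, and 0 to 513 with a library left out. Members called stayed at 0 in all 14 alternatives. In the HFD set 872 genes were called (235 higher, 637 lower), against 1339 on library totals (138 higher, 1201 lower), 2396 without a filter, 2906 with DESeq2, 2025 with limma-voom, 3672 in the fit of all 10 libraries and 19 to 5389 with a library left out. Library totals moved the median of all genes to −0.23 there. HFD members called came to 1 with DESeq2, limma-voom and the fit of all 10 libraries (Tyrp1, lower), and to between 0 and 2 with a library left out. For the difference between the sets, leaving out a library gave 1266 to 4467 genes and 0 to 4 members called.

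Replicate numbers were shared without any label that pairs them. With the number as a replicate block, 42 genes were called at E17.5 and 1520 in the HFD set, and of the members' calls only that of Kit in the difference ended (edgeR adjusted p = 0.0749). Under the block Dct stood at −0.0678 in the HFD set and Slc45a2 at −0.000421 at E17.5.

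Of 344 alternative values of the members' fold changes 22 changed sign, none of them past the threshold in either fit. For Slc45a2 these were −0.000900 at E17.5 in the fit of all 10 libraries, and on library totals −0.12 in the HFD set and −0.19 in the difference. For Dct in the HFD set these were −0.22 on library totals, −0.00236 with a minimum mean of 1 CPM and −0.0771 with limma-voom. With a library left out Slc45a2 ranged from −0.0555 to 0.0443 at E17.5, from −0.18 to 0.40 in the HFD set and from −0.19 to 0.37 in the difference. Dct ranged from −0.59 to 0.48 in the HFD set and from −0.75 to 0.30 in the difference, Tyr from −0.50 to 0.26 and from −0.73 to 0.0386, and Mlana from −0.19 to 0.0653 in the difference. The cause was not tested. Peaks with a −log10 q of at least 10 lay near 0 members for KLF5 and 0 for H3K27ac, against 3.23% and 38.1% of all genes tested.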
